A study of Drosophila melanogaster with 2 samples.

Results

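The cytoplasmic ribosomal protein genes of Drosophila melanogaster were taken as every protein-coding gene whose name is RpL or RpS followed by a digit or P, a rule on names that used no measured value. It gave 92 genes of 13968 protein-coding genes on the chromosome arms, 54 for the large subunit (RpL, with the stalk proteins) and 38 for the small subunit (RpS). They lay on 3R (23 genes), 2R (21), 2L (19), 3L (14), X (14) and 4 (1). Of the 92, 27 belonged to 13 families of paralogues by name, and 28 held a small nucleolar RNA (snoRNA) within the gene. The small subunit components Rack1 and sta do not carry an RpS name and were left outside the rule.

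The binding data came from chromatin immunoprecipitation and sequencing (ChIP-seq) of whole embryos aged 0 to 24 h from flies of the strain NFAT-GFP, which carry an insertion that makes an NFAT-eGFP fusion. NFAT is the fly member of the NFAT family of Rel-domain transcription factors, and the fusion was recovered with an antibody against GFP, although a sample tag names the antibody as NFAT. The 2 samples, biological replicates 1 and 2, formed 1 group with no second condition, and the labels do not say what drives the fusion or how its level compares with that of untagged NFAT. The chromatin is a mixture of all cells of the embryo. The results rest on 4 peak lists thresholded by the irreproducible discovery rate (IDR), a measure of how well a peak's rank repeats. They are a larger list (4899 peaks on the arms) and a conservative list (3909) over both replicates, the replicate 1 list (2236) and the replicate 2 list (3994). A gene had a peak where a summit, the highest point of a peak, lay within 1000 bp of any of its transcription start sites (TSSs). Signal is the authors' value per peak, on a scale that the sources used here do not state, so signals were set side by side only within a list. The lists carry no read totals, so depth is unknown. The labels name a possible control, which was not analysed here, and do not say whether it was used in calling the peaks.

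A ribosome joins a small subunit, which reads the mRNA, to a large subunit, which forms the peptide bonds, and its proteins are needed in near-equal amounts. Loss of one copy of many of these genes gives the Minute phenotype in flies, slow development with short bristles. Their promoters are among the most active in growing cells. In Drosophila many of them start transcription at a TCT initiator, a pyrimidine-rich start in place of the usual initiator, and the DNA replication-related element (DRE), bound by Dref, lies in a number of them. NFAT proteins are known, mostly from mammals, to bind the core GGAAA, which reads TTTCC on the other strand.

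The 6 promoters with the strongest NFAT-eGFP peaks of the set were those of RpS27, RpL7, RpL34b, RpS21, RpS28b and RpL23A. Each sequence is 100 bases on the gene's own strand from the Release 6 genome of NCBI (dm6), with 80 bases before the TSS nearest to the summit and 20 from the TSS on. Capitals mark a TCT initiator (CCTTT or TCTTT with its second base within 5 bases of the TSS), a DRE (TATCGATA) or the word CCAACTTC on either strand. The windows are RpS27 (chr3R:25247495-25247594, minus strand), RpL7 (chr2L:10200924-10201023, plus strand), RpL34b (chr3R:9401207-9401306, minus strand), RpS21 (chr2L:2855990-2856089, plus strand), RpS28b (chrX:9554543-9554642, plus strand) and RpL23A (chr3L:1668635-1668734, minus strand).
RpS27: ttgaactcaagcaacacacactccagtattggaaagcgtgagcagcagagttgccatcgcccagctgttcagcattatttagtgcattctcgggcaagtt
RpL7: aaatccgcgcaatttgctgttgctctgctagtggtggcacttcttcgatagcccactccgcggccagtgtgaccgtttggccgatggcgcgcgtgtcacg
RpL34b: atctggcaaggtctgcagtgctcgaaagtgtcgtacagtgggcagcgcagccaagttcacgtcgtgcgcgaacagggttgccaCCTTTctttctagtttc
RpS21: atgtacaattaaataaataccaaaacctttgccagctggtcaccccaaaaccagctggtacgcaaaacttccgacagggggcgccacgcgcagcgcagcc
RpS28b: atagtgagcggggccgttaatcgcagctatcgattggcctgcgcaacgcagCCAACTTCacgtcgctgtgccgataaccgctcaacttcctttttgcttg
RpL23A: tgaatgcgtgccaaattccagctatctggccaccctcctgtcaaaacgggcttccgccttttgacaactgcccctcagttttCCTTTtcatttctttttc
RpL34b and RpL23A carried the TCT initiator at the TSS nearest to the summit, RpS28b carried the word, and RpS27, RpL7 and RpS21 carried no capitals in these windows.

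A further set shows the word beside the start site. The windows are RpL28 (chr3L:3222941-3223040, minus strand), RpLP0 (chr3L:22076012-22076111, plus strand), RpS19a (chrX:16637814-16637913, plus strand) and RpL13 (chr2L:9967233-9967332, plus strand).
RpL28: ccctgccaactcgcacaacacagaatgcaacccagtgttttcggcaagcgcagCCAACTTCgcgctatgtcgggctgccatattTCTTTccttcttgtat
RpLP0: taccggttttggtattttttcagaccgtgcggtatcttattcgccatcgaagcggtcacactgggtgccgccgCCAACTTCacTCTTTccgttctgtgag
RpS19a: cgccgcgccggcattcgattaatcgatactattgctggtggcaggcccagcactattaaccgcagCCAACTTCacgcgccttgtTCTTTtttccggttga
RpL13: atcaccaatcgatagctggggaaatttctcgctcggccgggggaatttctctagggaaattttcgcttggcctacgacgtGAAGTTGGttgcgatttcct
In RpL28, RpLP0 and RpS19a the word came before a TCT initiator on the same strand, and in RpL13 it lay at the TSS on the opposite strand.

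Another set shows the DRE in promoters with a peak. The windows are RpL27 (chr3R:25685032-25685131, minus strand), RpS25 (chr3R:11216268-11216367, minus strand), RpS15Aa (chrX:13337686-13337785, minus strand) and RpL37-1 (chrX:15139348-15139447, minus strand).
RpL27: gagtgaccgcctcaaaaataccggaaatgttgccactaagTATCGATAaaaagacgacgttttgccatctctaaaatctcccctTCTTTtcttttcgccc
RpS25: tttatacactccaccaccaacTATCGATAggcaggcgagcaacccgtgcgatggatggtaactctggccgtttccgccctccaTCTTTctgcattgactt
RpS15Aa: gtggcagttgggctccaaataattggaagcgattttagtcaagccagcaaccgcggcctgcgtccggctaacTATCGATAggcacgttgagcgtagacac
RpL37-1: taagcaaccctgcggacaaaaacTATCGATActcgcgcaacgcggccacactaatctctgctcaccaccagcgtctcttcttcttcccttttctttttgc
The DRE lay upstream of a TCT initiator in RpL27 and RpS25, started 8 bases before the TSS in RpS15Aa, and stood without a TCT initiator in RpS15Aa and RpL37-1.

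Ribosomal protein genes had NFAT-eGFP peaks at most of their promoters. In the larger list 65 of 92 genes (70.7%) had a peak, against 26.6% of all protein-coding genes (3709 of 13968). The subunits did not stand apart, with 38 of 54 RpL genes (70.4%) and 27 of 38 RpS genes (71.1%). The conservative list, most of whose peaks (3621 of 3909) are also in the larger one, held 62 of the 92 genes (67.4%), against 22.7% of all genes. With 1 group and no control analysed here, these shares are descriptions of the lists with no test of a condition. A share over all genes counts a peak between neighbouring genes for each of them.

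Each replicate's own list also held most of the genes. The replicate 1 list had a peak at 51 of the 92 genes (55.4%), against 15.0% of all genes, and the replicate 2 list at 68 (73.9%), against 24.2%. Both replicate lists held 50 of the genes (54.3%), against 14.3% of all genes. All 4 thresholded lists also held 50 of the genes. Replicate 1 alone gave RpL32, replicate 2 alone gave 18 genes, and 23 genes were in neither. Over all protein-coding genes the lists were uneven in the same direction. The replicate 1 list held 2098 genes and the replicate 2 list 3378, of which 1999 were in both. The subunits differed more in replicate 1 (32 of 54 RpL genes and 19 of 38 RpS genes) than in replicate 2 (41 and 27). When the replicate 2 list was shortened to its 2236 strongest peaks, the length of the replicate 1 list, it still held 61 of the 92 genes, against 16.3% of all genes.

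**Figure D1:**
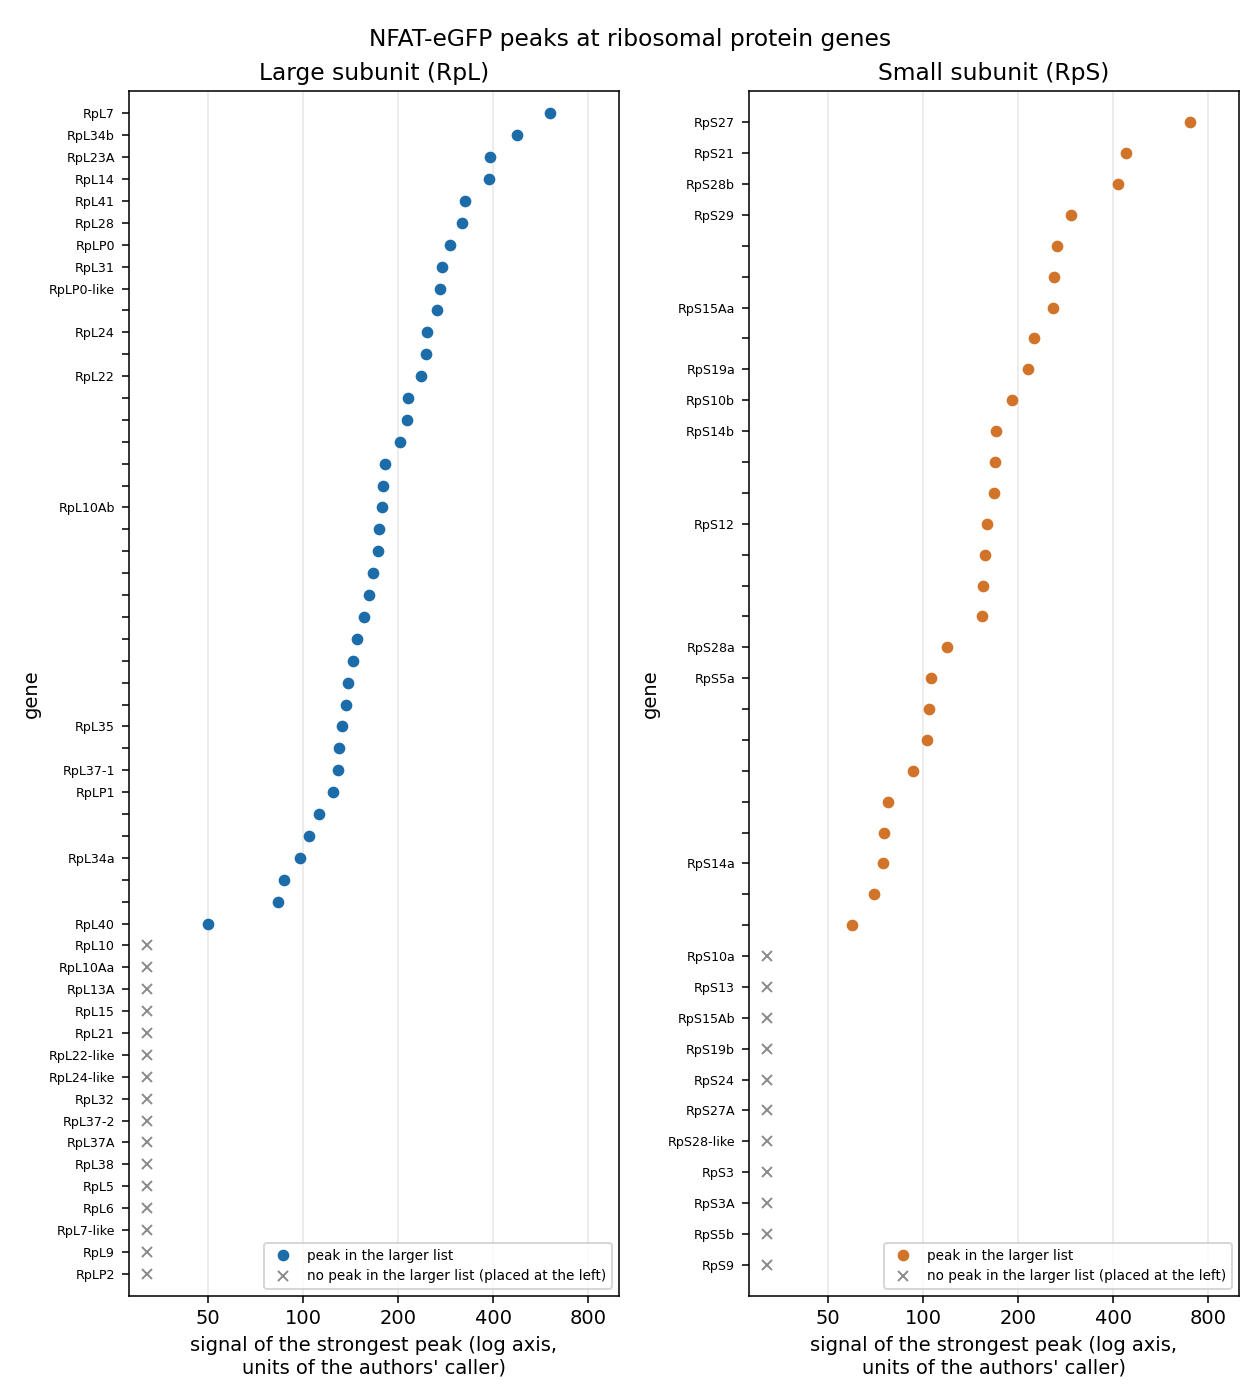
Signal of the strongest peak of the larger list at each of the 92 genes, on a log axis in the units of the authors' caller, with RpL genes on the left and RpS genes on the right. Names are given for the 12 strongest, the paralogues, the stalk genes, the 3 farthest summits and the genes without a peak. Points are genes with a peak (38 RpL and 27 RpS, from 49.8 to 700.0), and crosses at the left edge are genes with none.

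The peaks at ribosomal protein genes were mostly among the stronger ones of the larger list. Their median signal was 169, with a lowest value of 49.8 and a highest of 700.0, against a median of 114 for all genes with a peak (8.83 to 2300.2). The strongest peak was among the strongest 25% of the list by signal at 43 of 65 genes (66.2%), against 36.5% of all genes with a peak. Another 14 lay between that limit and the median of the list, and 8 lay below the median. The median was 176 for RpL genes and 159 for RpS genes. No ribosomal protein gene was among the 44 strongest peaks of the list. Their median percentile in the list was 81.7, against 64.0 for all genes with a peak. It was 82.2 for the 16 translation factor genes with a peak, whose median signal was 173. In each replicate's own list the median percentile of ribosomal protein genes was lower, 67.0 in replicate 1 (51 genes) and 79.2 in replicate 2 (68 genes). The lists differ in length, and the median over all genes is not given here for the replicate lists. Mitochondrial ribosomal protein genes with a peak had a median signal of 105 and a median percentile of 59.0.

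RpS27 had the strongest peak of the set, at chr3R:25247407-25247635, with a signal of 700.0 in the larger list, 251 in replicate 1 and 446 in replicate 2. Its summit lay 12 bp upstream of the TSS, and the peak ranked 45 in the list. RpL7, an RNA-binding protein of the large subunit, followed with 606 in the larger list, 211 in replicate 1 and 386 in replicate 2, at rank 67. Its peak (chr2L:10200928-10201146) had its summit 37 bp downstream of the TSS. These 2 genes led the set in both replicates.

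The next genes were led by RpL34b, with 475 in the larger list, 178 in replicate 1 and 280.0 in replicate 2, and its summit (chr3R:9401184-9401384) lay 81 bp upstream. RpS21, known in flies as a gene whose loss overgrows the blood-forming organs, had 438, 146 and 289.9 in the same lists, with the summit 12 bp downstream (chr2L:2855974-2856164). RpS28b had 414, 147 and 269, with the summit 16 bp upstream (chrX:9554500-9554687). All 3 were in both replicate lists. RpL23A, at the exit of the tunnel that the new protein leaves by, had 389, 125 and 257. RpL14, the product of a Minute gene, had 388, 109 and 271. Their summits lay 76 bp and 46 bp upstream of the TSS.

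Among the 12 strongest the remaining genes spanned signals from 276 to 326. RpL41, one of the smallest proteins of the cell, had 326 in the larger list, 82.4 in replicate 1 and 242 in replicate 2. RpL28 had 318, 124 and 195 in these lists, and RpS29 had 293, 106 and 182. The stalk gene RpLP0 had 291, 90.0 and 202, and RpL31 had 276, 89.7 and 183. All 12 were in both replicate lists, and every one of these summits lay within 81 bp of a TSS.

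The other stalk genes went lower. The stalk is the arm of the large subunit that recruits translation factors, built of RpLP0 with dimers of RpLP1 and RpLP2. RpLP1 had a signal of 124 in the larger list with its summit 27 bp downstream, 77.0 in replicate 2 and no peak in the replicate 1 list. RpLP2 had no thresholded peak, and its ranked peak over both replicates (signal 61.9, 12 bp upstream) had a −log10 IDR of 0.20 and 1.30 in the ranked lists over both replicates, where the larger list begins at 2.000.

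The order of the genes was alike in the replicates. Over the 50 genes in both replicate lists, the signals had a Spearman rho of 0.820, given as a description because genes are not replicates and the libraries share the genome and the antibody. The 2 summits of a gene lay a median of 13.0 bp apart, and within 50 bp of each other at 44 of the 50. The median percentile of these genes was 66.1 in the replicate 1 list and 85.1 in the longer replicate 2 list.

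The 18 genes of the replicate 2 list alone included RpL5, RpL9, RpL11, RpL34a, RpL37A, RpL40, RpLP1, RpS5a, RpS9, RpS14a and RpS27A. The 18 were lower in that list (median percentile 54.3). At 14 of the 18 a summit was also present in the ranked, unthresholded list of replicate 1. That list is long (108240 peaks on the arms), and 92.4% of all protein-coding genes had a summit in at least 1 ranked list. Such a summit therefore says little about the 18. RpL40 and RpS27A, which make ubiquitin fused to a ribosomal protein, were both among the 18, with 34.5 and 105 in replicate 2.

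**Figure D2:**
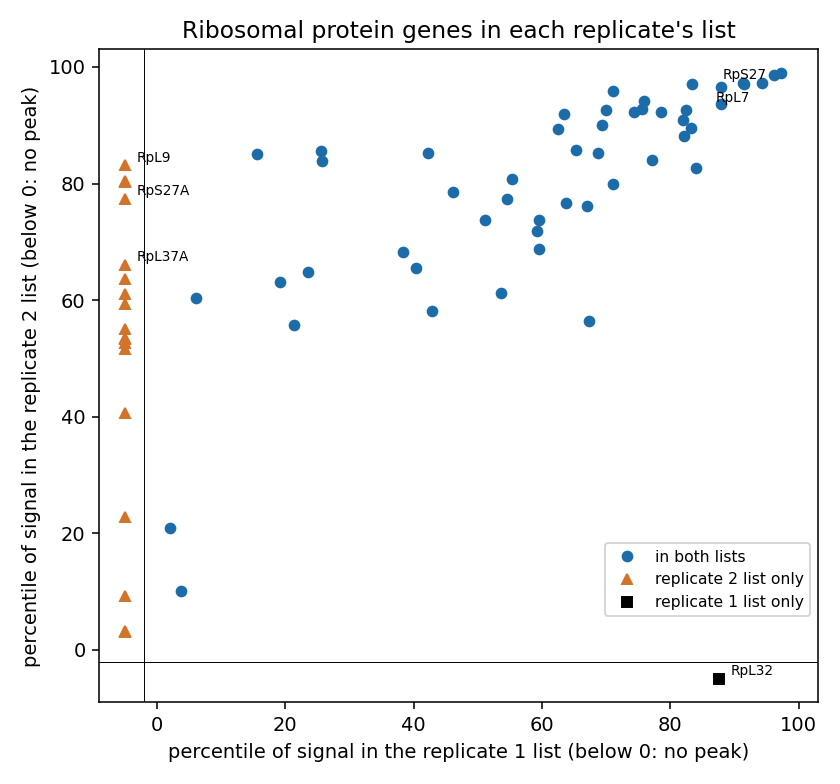
Percentile of signal of the strongest peak in the replicate 1 list (horizontal) and the replicate 2 list (vertical) for each ribosomal protein gene; circles are the 50 genes in both lists, triangles the 18 in the replicate 2 list only and the square RpL32, in the replicate 1 list only. Values below 0 stand for no peak, and RpS27 and RpL7 lie at the upper right.

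Most of the summits lay close to a start site. The 65 genes with a peak had a median summit position of −21.0 bp (quartiles −47.0 and 3), where negative values are upstream, against −88.0 bp (−262 and −18.0) for all genes with a peak. The median absolute distance was 27.0 bp, against 130.0 bp. Summits lay within 25 bp of a TSS at 32 of the 65 genes (49.2%), against 11.8% of all genes with a peak, and within 50 bp at 48 (73.8%), against 24.8%. As a share of all genes, with or without a peak, 48 of 92 ribosomal protein genes had their strongest summit within 50 bp, against 6.59% of all protein-coding genes. The median was −28.5 bp for RpL genes and −11.0 bp for RpS genes. The chromatin had a size range of 200 to 800 per the labels, and summits were taken as the authors gave them.

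Genes of related function give a scale for this position, without a test of the difference. Of the 32 mitochondrial ribosomal protein genes with a peak, 6 (18.8%) had the summit within 50 bp of a TSS, with a median of −110.5 bp. Of the 16 translation factor genes with a peak, 8 did, with a median of −36.5 bp. More annotated start sites leave shorter distances, and at least 2 were annotated at 35 of the 65 ribosomal protein genes with a peak (53.8%), against 42.5% of all genes with a peak. Their part in the distance was not tested.

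**Figure D3:**
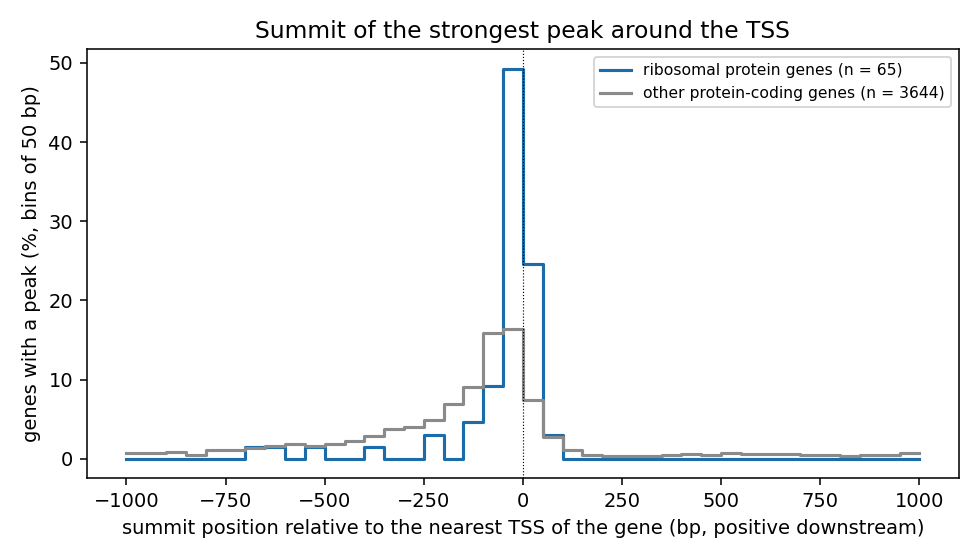
Position of the strongest summit relative to the nearest TSS of the gene, as the percent of genes with a peak in bins of 50 bp, for 65 ribosomal protein genes and 3644 other protein-coding genes. The ribosomal protein genes pile up in the bins on each side of the TSS (median −21.0 bp), and the other genes spread further upstream (median −90.5 bp).

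A peak near a ribosomal protein gene usually belonged to it by distance. At 58 of 65 genes (89.2%) no protein-coding TSS was nearer to the summit than the gene's own, against 69.7% of all genes with a peak. The 65 genes held 81 peaks, with 49 genes at 1 peak and 16 at 2, and no peak was shared by 2 ribosomal protein genes. The exceptions included RpL35 (Rab18), RpL40 (CG3702), RpLP0-like (14-3-3zeta), RpS12 (Adk2), RpS20 (CG17271) and RpS28a (Axn). The 3 farthest summits were among them, 661 bp upstream at RpL40, 606 bp at RpS12 and 527 bp at RpL35. RpS12, known for marking Minute cells for elimination by their neighbours, also had a second peak of its own, with a signal of 149 and the summit 27 bp upstream, against 159 at the Adk2 side. At RpL40 the signal was 49.8, the lowest of the set.

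Conversely, a few genes of related function were counted through a ribosomal protein peak. The peak counted for Dref (signal 172, 66 bp upstream) had its nearest TSS at RpL13. The replicates differed here. In replicate 1 the summit was nearest to Dref, at 12 bp, and in replicate 2 to RpL13, at 26 bp. The peaks counted for the initiation factor eIF1 (318) and for the ribosome assembly gene bys (168) were nearest to RpL28 and RpS6. RpS6 is the small subunit protein phosphorylated by S6 kinase.

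All 14 ribosomal protein genes on X had a peak in the larger list, against 25.0% of all protein-coding genes on X. On the autosomes 51 of 78 (65.4%) did, against 26.9% of all autosomal genes. The conservative and replicate 2 lists also held all 14 on X, with 48 and 54 of the 78 on autosomes. In replicate 1 they were 12 of 14 and 39 of 78. Signals on X ran from 74.6 at RpS14a to 414 at RpS28b, below that of RpS27 on 3R. The difference between arms was not tested.

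Among genes that hold a snoRNA, 23 of 28 ribosomal protein genes (82.1%) had a peak, against 65.5% of all protein-coding genes that hold one (55 of 84, the 28 included). Ribosomal protein genes without a snoRNA reached 42 of 64 (65.6%). RpS5a held 14 snoRNAs, the most of the set, and had a signal of 106.

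Within families of paralogues the peak was usually at 1 gene. Of 13 families by name, 9 had a peak at 1 gene only. RpL7 had 606 in the larger list, RpS15Aa 257, RpL24 247, RpL22 236, RpS19a 214, RpS10b 191, RpL10Ab 178, RpL37-1 129 and RpS5a 106. Their partners RpL7-like, RpS15Ab, RpL24-like, RpL22-like, RpS19b, RpS10a, RpL10Aa, RpL37-2 and RpS5b had none there. RpL22-like, RpS19b, RpS10a and RpS5b are known mainly from the fly germ line. Over all families 17 of 27 genes (63.0%) had a peak, against 48 of 65 genes (73.8%) with no paralogue by name, and among the 5 genes named -like only RpLP0-like had a peak.

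In 4 families at least 2 genes had a peak. RpL34b had 475 and RpL34a 97.7, a ratio of 4.86, and RpL34a was absent from the replicate 1 list. RpS28b had 414 and RpS28a 119, a ratio of 3.49, and RpS28-like had none. RpS14b had 169.7 and RpS14a, its tandem neighbour on X, had 74.6, a ratio of 2.27, and RpS14a was absent from the replicate 1 list. RpLP0 had 291 and RpLP0-like, a relative of a yeast ribosome assembly factor, had 272, a ratio of 1.07, and the RpLP0-like peak was nearest to 14-3-3zeta (40 bp). Near-identical copies can share reads, and how the authors treated reads that map to several places is not stated in the labels or lists.

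The promoters of the pairs printed here differ in the elements searched. The windows, as above, are RpS14b (chrX:7934818-7934917, plus strand), RpS14a (chrX:7933662-7933761, plus strand), RpL34a (chr3R:26059248-26059347, minus strand), RpS28a (chr3R:30022629-30022728, minus strand), RpS19b (chr3R:23933511-23933610, minus strand), RpS10b (chrX:19597951-19598050, plus strand) and RpS10a (chr3R:27652680-27652779, plus strand); those of RpL34b, RpS28b and RpS19a are given before.
RpS14b: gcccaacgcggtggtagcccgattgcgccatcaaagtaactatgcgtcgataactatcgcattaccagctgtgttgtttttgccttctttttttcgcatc
RpS14a: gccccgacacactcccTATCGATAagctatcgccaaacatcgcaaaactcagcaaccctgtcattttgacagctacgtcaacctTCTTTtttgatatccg
RpL34a: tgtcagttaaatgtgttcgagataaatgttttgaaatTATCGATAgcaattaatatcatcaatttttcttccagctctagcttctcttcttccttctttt
RpS28a: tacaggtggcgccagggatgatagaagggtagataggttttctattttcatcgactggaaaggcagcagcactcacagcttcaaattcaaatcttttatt
RpS19b: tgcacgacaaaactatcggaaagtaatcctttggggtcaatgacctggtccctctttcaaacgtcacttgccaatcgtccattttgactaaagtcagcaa
RpS10b: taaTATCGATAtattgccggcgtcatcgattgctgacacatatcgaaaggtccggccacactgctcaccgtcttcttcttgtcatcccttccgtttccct
RpS10a: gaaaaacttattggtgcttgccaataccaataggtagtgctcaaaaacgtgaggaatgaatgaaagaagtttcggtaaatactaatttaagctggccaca
RpS14a, with the weaker peak, carried both a DRE and a TCT initiator, and RpS14b neither. RpL34a carried a DRE where RpL34b carried a TCT initiator. RpS28a and RpS19b carried no marked element, while RpS28b carried the word and RpS19a the word with a TCT initiator. RpS10b carried a DRE and RpS10a, with no peak, nothing marked. Pairs not printed went several ways. RpL10Ab carried a DRE and RpL10Aa, with no peak, nothing marked. Conversely, RpL7-like and RpL24-like, with no peak, carried a DRE, while RpL7 and RpL24 carried nothing marked in these windows. In RpS5a and RpS5b a TCT initiator was present at both.

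**Figure D4:**
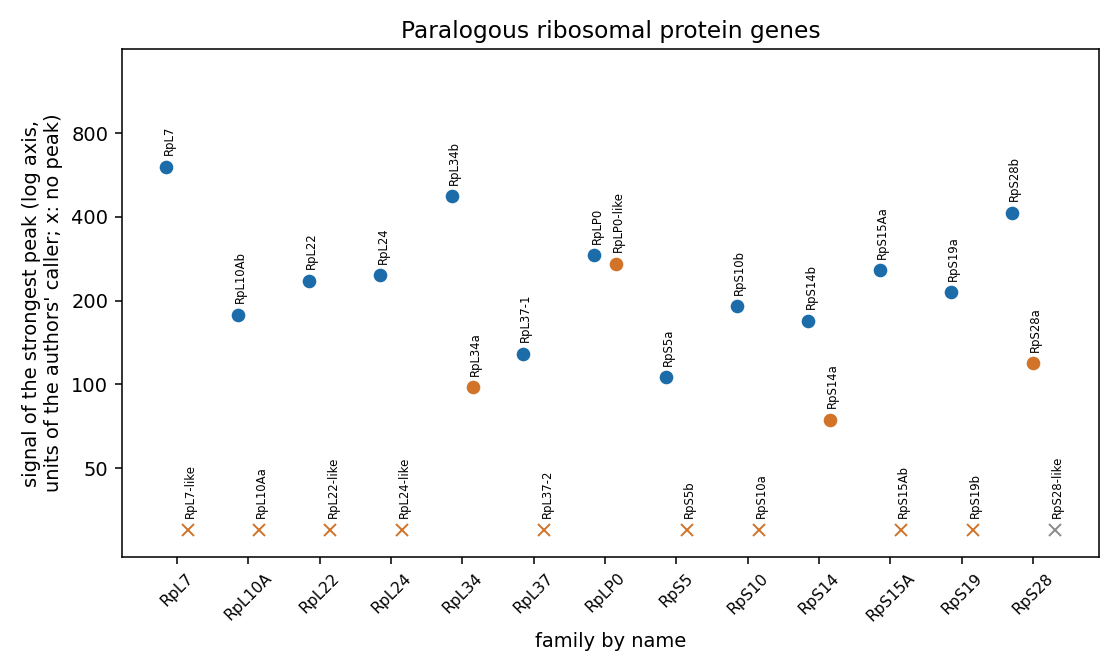
Signal of the strongest peak of the larger list (log axis, units of the authors' caller) for the genes of each of the 13 families, with the gene of higher signal on the left in each family and crosses at the bottom for genes with no peak. In 9 families a single gene has a point, and in the RpLP0 family both points are close (291 and 272).

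The TCT initiator was common in the set and rare elsewhere. It was searched as CCTTT or TCTTT on the gene's strand at any annotated TSS. It was present at 56 of 92 ribosomal protein genes (60.9%), against 3.31% of all protein-coding genes. Mitochondrial ribosomal protein genes had it at 2 of 73 (2.74%) and translation factors at 7 of 36 (19.4%). The usual initiator, searched as TCAGT, was at 1 of 92 ribosomal protein genes and 14.0% of all genes.

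Within the set, the initiator was present at 41 of 65 genes with a peak (63.1%) and at 15 of 27 without (55.6%). With only the 5′ end of the gene record as TSS the order turned, with 20 of 65 (30.8%) and 10 of 27 (37.0%). Outside the set, 139 of 407 genes with the initiator had a peak (34.2%), against 26.6% of all protein-coding genes. For genes outside the set with the usual initiator the share was 30.8% (603 of 1956). Members with a peak and the initiator had a median absolute summit distance of 23.0 bp and a median signal of 182, and those without it 39.0 bp and 156. At the 5′ ends, 30 of 92 genes (32.6%) had the initiator, against 2.19% of all genes, so the share depends on the annotated starts.

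The DRE, searched as TATCGATA (a palindrome) in 101 bases centred on the strongest summit, was at 14 of 65 ribosomal protein genes (21.5%), against 5.98% of the 3644 other genes with a peak. Among genes with the summit within 50 bp of the TSS the shares were 22.9% of 48 and 10.2% of 872. In windows of the same length centred on the 5′ end of the gene, with or without a peak, they were 16.3% of 92 and 5.56% of all protein-coding genes. Among the genes were RpL10Ab, RpL19, RpL27, RpL34a, RpL37-1, RpL41, RpS15Aa, RpS25 and RpS29. The signals of all 14 (97.7 to 326, median 169.9) lay inside the range of the 51 others (49.8 to 700.0, median 169). A TCT initiator was also present at 8 of the 14. The shorter core CGATA, part of the DRE, was at 49.2% of the set and 29.5% of the others, and at 39.1% of the 5′ ends of the set and 25.8% of all. Among genes with the summit within 50 bp of the TSS the shares were closer. There the core was at 24 of 48 genes of the set and 386 of 872 others (44.3%).

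Other promoter elements were searched in the same windows. The E-box CACGTG, the site of Myc with Max, was at 4 summits (6.15%, RpL7, RpL11, RpL24 and RpL29), against 1.07% of other genes, and at 8.70% of the 5′ ends of the set, against 1.98% of all. The M1BP element GGTCACACT was at 4 (6.15%, RpL27A, RpLP0, RpLP1 and RpS23), against 2.11%, and at 7.61% of the 5′ ends, against 4.36% of all. The core CACTG was at 27.7%, against 31.2%, and at 26.1% of the 5′ ends, against 23.7%. TATAAA was at 6.15%, against 12.7%, and at 4.35% of the 5′ ends, against 17.0%. GAGAGA was at none of the 65 summits, against 4.45%, and at none of the 92 5′ ends, against 3.56%. All were searched on both strands, and no match says only that these letters were not in the window.

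The NFAT core GGAAA, on either strand, was within 50 bp of 40 of 65 summits (61.5%), against 25.5% of other genes with a peak. It was at 54.3% of the 5′ ends of the set and 26.4% of all. The longer TGGAAA was at 13.8%, against 11.2% (9.78% of the 5′ ends of the set and 10.5% of all). The orientation was uneven. TTTCC on the gene's own strand, which is the core on the opposite strand, was at 34 summits (52.3%), against 13.4% of other genes. GGAAA on the gene's own strand was at 8 (12.3%), against 13.8%. Other genes thus had the core in either orientation about equally often, and ribosomal protein genes had it mostly in 1.

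TTTCC overlaps the TCT initiator, as in the start TCTTTCC of RpLP0. With every match that shares a base with CCTTT or TCTTT on either strand left out, TTTCC on the gene's strand was at 22 of 65 summits (33.8%), against 11.9% of other genes. Among summits within 50 bp of the TSS it was at 21 of 48 (43.8%), against 14.1% of 872. For both orientations of the core together, the shares left were 44.6% and 22.7%.

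**Figure D5:**
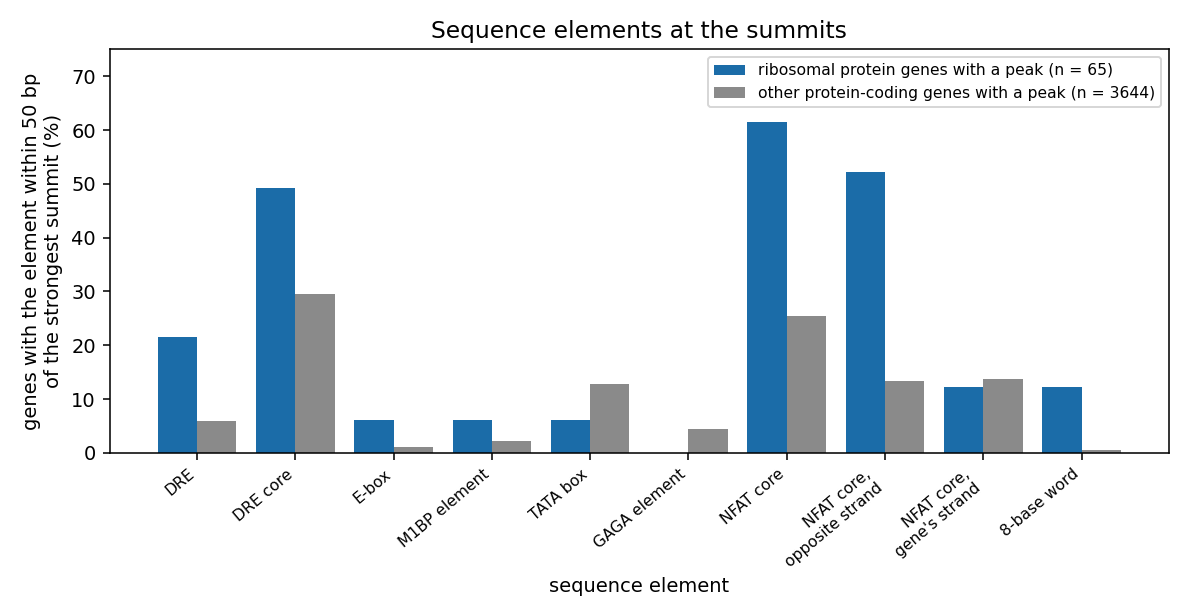
Percent of genes with each sequence element within 50 bp of the strongest summit, on bars from 0, for 65 ribosomal protein genes (left bar of each pair) and 3644 other protein-coding genes with a peak (right bar). The NFAT core on the strand opposite to the gene is at 52.3% and 13.4%, and the 8-base word at 12.3% and 0.549%.

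The word CCAACTTC was noticed in the promoters printed above, so its count is a description with no test. Searched on both strands, it was at 8 of 65 summits (12.3%), against 20 of 3644 other genes with a peak (0.549%). In windows at the 5′ ends it was at 6 of 92 ribosomal protein genes (6.52%), against 0.365% of all protein-coding genes. The genes were RpL7, RpL13, RpL27A, RpL28, RpLP0, RpS19a, RpS21 and RpS28b. Counting the TSS as 0, its first base lay at −29 in RpS28b, −27 in RpL28, −15 in RpS19a, −7 in RpLP0, 0 in RpL13, 18 in RpL27A and RpS21, and 72 in RpL7. The word covered the summit in RpL28 and RpLP0, and lay 2 bp from it in RpS19a and 6 bp in RpS21 and RpS28b. It was on the gene's strand in all but RpL7 and RpL13.

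The 27 genes without a peak in the larger list fell into 3 kinds. In 7 a peak was present in another thresholded list, in 16 only in a ranked list, and in 4 in none. At least 1 of the 4 thresholded lists thus held 72 of the 92 genes (78.3%), against 29.0% of all genes. A ranked list reached 88 (95.7%), which is close to the 92.4% of all genes, since the ranked lists hold from 108240 to 132548 peaks each on the arms.

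RpL32, often used as a reference gene in fly expression work, had a peak within the window in other lists and none in the larger list. It had 317 in the conservative list and 124 in the replicate 1 list, at summits 198 bp and 200 bp upstream of the TSS. Both summits were nearer to CG7943, at 111 bp and 109 bp. Replicate 2 had a ranked peak of 196 at 195 bp upstream with a −log10 IDR of 0.06. The ranked list behind the larger one held only a weaker summit near the gene, with a signal of 28.3 at 648 bp downstream. Both replicates thus had a peak near the same position, with a −log10 IDR of 5.0 in replicate 1.

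RpL9, RpL37A and RpS27A had peaks in the replicate 2 list alone, with signals of 121, 83.8 and 105 at 18 bp, 21 bp and 60 bp upstream of the TSS. The RpS27A summit was equally near to Ip259. None of these had a summit in the ranked list of replicate 1. RpL5 (41.5) and RpS9 (35.0) were in the replicate 2 list near its lower end, and RpS5b (48.8) was in the conservative list alone, 510 bp downstream of its TSS.

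RpL13A had a strong peak that no thresholded list held. Its ranked peak had 235 over both replicates, 43 bp upstream of the TSS, with a −log10 IDR of 4.62 and 4.94 in the ranked lists over both replicates, 4.71 in replicate 1 and 5.0 in replicate 2. All of these pass the limit of 2.000. The authors' step that leaves such peaks out of the thresholded lists is not stated in the labels or lists.

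The rest of the ranked-only genes had signals up to 61.9 (RpLP2) over both replicates. They were RpL6, RpL10Aa, RpL21, RpL22-like, RpL24-like, RpL37-2, RpL7-like, RpLP2, RpS3, RpS10a, RpS13, RpS15Ab, RpS19b, RpS24 and RpS28-like. RpS3 and RpS13 are classic Minute genes. RpL6 had 44.8 at 28 bp downstream and RpS24 52.8 at 104 bp downstream. RpS3 had 35.8, at 669 bp downstream. RpL21 had a summit in the ranked list of replicate 2 alone (39.1).

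RpL10, RpL15, RpL38 and RpS3A had no summit within 1000 bp in any of the 8 lists. RpS3A lies on chromosome 4, and RpL10, RpL15 and RpL38 lie 5.01 Mb, 0.842 Mb and 4.52 Mb from the centromere-proximal end of their arms. With that greatest distance, 5.01 Mb, taken as a limit after these genes were seen, 773 of 1116 protein-coding genes inside it or on chromosome 4 (69.3%) had a ranked peak, against 94.4% of the other genes. In the larger list it was 19.9% of the 1116. Of the 8 ribosomal protein genes there, 4 had a ranked peak and 2 had a peak in the larger list, RpL30 (202) and RpS10b (191).

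Other genes of the translation machinery were set beside the ribosomal proteins as lists. Mitochondrial ribosomal protein genes had a peak at 32 of 73 (43.8%), translation factors at 16 of 36 (44.4%) and ribosome biogenesis genes at 16 of 32, against 26.6% of all protein-coding genes. The leading translation factors by signal were eIF6, which keeps the subunits apart (1522), the elongation factor eEF1gamma (419), the poly(A)-binding protein pAbp (330.2) and eIF1 (318). The leading biogenesis genes were nclb (239), Nop17l (182), bys (168) and NHP2 (145), but the peak counted for nclb had its summit at −943 bp from the TSS and was nearest to CG30015, and that for bys was nearest to RpS6. By role, snoRNP genes had a peak at 6 of 8. Of these, 4 were nearest to another gene (hoip to Pka-C1, Nop56 to mats, Fib to CG3085 and Nop10 to mms4). Assembly and export genes had one at 8 of 17 and RNA polymerase I genes at 2 of 7 (28.6%, near the share of all genes). Besides those for nclb and bys, the peaks counted for Ns1, pit and Polr1D were nearest to another gene (mRpS11, Fadd and brat). Of 23 genes for promoter factors, Myc and TOR signalling, 16 (69.6%) had a peak, led by Adf1 (1037, with the summit at 761 bp downstream), Chro (777), Thor (383) and Trl (308). Of these 16, 6 were counted through a peak nearest to another gene (Trf2 to lawc, Dref to RpL13, M1BP to CG8202, Max to CG42374 and Mettl5, pzg to CG12974 and raptor to Nep1). The listed symbol Tor did not match, so the gene mTor (215, 247 bp upstream) was not counted. The small subunit components left out by name both had one, Rack1 with 218 and the summit 17 bp downstream, and sta with 104 and the summit 2 bp downstream.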

How the data were processed

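ChIP-seq peak lists of 2 samples, biological replicates of 1 group, were used. Per the labels, chromatin was sonicated and positions are on dm6. The aligner, the peak caller, the signal scale and the handling of repeated reads were not given in the sources used here. Of the deposited lists, 4 are thresholded by IDR and 4 are ranked and unthresholded. The deposited signal value per peak was used within a list only. A deposited score in the ranked lists, the −log10 global IDR, was read as given. The deposited −log10 q-values were not used for any result. The deposited summit offset gave each summit. No list gives a count of reads, so precision from depth is unknown.

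Genes and TSSs came from Ensembl release 115 (BDGP 6.54), sequence from the NCBI Release 6 genome. Peaks on the arms were assigned to each gene with a TSS within 1000 bp of the summit, and the strongest peak was kept. Of 100 listed symbols, 88 matched, 6 matched by synonym and 6 (those of eIF2B and Tor) did not match. Genes named were the 12 with the strongest peak, those with no peak, paralogues, stalk genes, the 3 farthest summits and up to 4 per other list. Genes named for other reasons were chosen after their values were seen. The genes and lists were chosen with earlier results of these data known. No statistical test was run, since the samples form 1 group. Only the assignment of planted summits to genes and a search for planted DRE letters were tested on simulated data. Alternatives numbered 45 planned and 8 added after the data were seen. Python 3.11.15, NumPy 2.4.6, pandas 2.3.3 and matplotlib 3.10.9 were used. Tracks and alignments were not used here, and some genes are counted but not reported here by name.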

Additional observations from a re-analysis of the deposited data

How the results depend on the processing

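The count of 65 ribosomal protein genes with a peak ranged from 51 to 72 over the alternatives. These were other lists, each replicate alone, the stronger 50% of peaks and narrower windows of 500 bp and 250 bp. They also covered 5′ ends only, any base of a peak, own peaks only and no -like genes. Each count stayed within 1.5 times the main count, but no higher count could pass that limit, since the set holds 92 genes. The median summit position of −21.0 bp became −20.0 bp with summits within 500 bp and −16.0 bp with 5′ ends only, and ranged from −22.0 to −21.0 bp with a replicate left out. The median percentile of 81.7 ranged from 67.0 to 79.2 with a replicate left out, the lower value being replicate 1 alone. The TCT initiator count fell to 30 with 5′ ends only, against 56 with all TSSs. In windows of 201 bp the DRE was at 29.2% of ribosomal protein summits against 9.93% of other genes, the NFAT core at 75.4% against 44.4%, and the word CCAACTTC at 12.3% against 0.906%. Depth limits these lists in a way that cannot be judged, since they give no read totals. No paired analysis was possible because the samples form 1 group.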
